A study of Gallus gallus with 2 samples.

Results

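Dividing cells that carried transcripts of both OTX2 and ONECUT1 were drawn from 2 single cell libraries of the embryonic chick retina. A cell was taken as a member if it had 200 to 3200 detected genes, at least 1 UMI of OTX2 and at least 1 of ONECUT1, no more than 2 UMIs of the cone gene RBP4, none of the horizontal cell gene LHX1, and at least 3 UMIs in all of the 8 division genes TOP2A, MKI67, CENPF, CDK1, TPX2, UBE2C, NUSAP1 and RRM2. A UMI (unique molecular identifier) marks 1 captured transcript molecule. The rule found 211 cells in the CTRL library and 115 in the OTX2CRISPR library, 326 of the 10074 cells with 200 to 3200 genes. They were set against 905 CTRL and 457 OTX2CRISPR cells that passed the same limits with OTX2 but had no ONECUT1 UMI, called ONECUT1-negative cells below.

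In the embryonic retina, multipotent progenitors give rise to restricted progenitors whose last divisions make only a few neuron types. OTX2, a homeodomain transcription factor needed for photoreceptor fate, and ONECUT1, a cut-homeodomain transcription factor needed for horizontal cells, are both made in a restricted progenitor that yields cones and horizontal cells. OLIG2, a bHLH transcription factor, marks restricted progenitors of this kind. After the last division OTX2 is kept in photoreceptors, while ONECUT1 is kept in horizontal cells.

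Chick retinas were electroporated ex vivo at embryonic day 5 and cultured for 48 h. Both groups received the reporter OTX2ECR2::GFP, in which a mouse OTX2 enhancer drives green fluorescent protein, and a plasmid that encodes Cas9 under the CAG promoter together with a guide RNA scaffold. The CTRL plasmid (library labelled wt retina) held no guide sequence, and the OTX2CRISPR plasmid (labelled ko retina) held guide 2 against OTX2. Retinas of female embryos were pooled, dissociated and sorted for GFP, and the CTRL retinas came from the other eye of the embryos that gave the OTX2CRISPR retinas. Cells were not assigned to embryos here. The sort means that the libraries hold cells that used the enhancer and not the whole retina. The strain is not given in the sources used here. Editing by electroporated plasmids differs from cell to cell, and an OTX2 UMI, read near the 3′ end of the transcript, does not show that the cell held working protein.

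The files held 5128 CTRL barcodes with 15177210 UMIs and 4953 OTX2CRISPR barcodes with 13366081 UMIs, and median depth in the cells kept was 2789 and 2570 UMIs. OTX2 was found in 83.0% of dividing CTRL cells and in 45.3% of dividing OTX2CRISPR cells. The libraries shared 38 barcode sequences, which 4 CTRL members and 0 OTX2CRISPR members carried. Members had 0 UMIs of the 8 red blood cell genes found in the files, which allows up to 3.91 CPM in CTRL and 8.28 CPM in OTX2CRISPR, as 3 UMIs would be at the depth behind OTX2. The 10 pigment epithelium genes together were at 22.1 and 16.6 CPM in members and at 22.8 and 11.2 CPM in ONECUT1-negative cells. CPM is the sum of a gene's UMIs over a class of cells, scaled to 1000000 UMIs of that class. Each group was 1 library with no replicate, so no test between groups was possible, and every comparison describes these 2 libraries. Intervals in parentheses are exact 95% intervals and cover counting error only.

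ONECUT1 was found in close shares of dividing OTX2 cells before depth was matched and in a higher share in OTX2CRISPR after each cell was thinned to 2000 UMIs. Unthinned, it was detected in 211 of 1116 CTRL cells, 18.9% (16.6 to 21.3%), and in 115 of 572 OTX2CRISPR cells, 20.1% (16.9 to 23.6%). Without the barcodes found in both libraries, an alternative chosen after seeing the data, these ONECUT1 shares were 18.7% and 20.2%. Members made up 4.12% of the cells kept in CTRL and 2.32% in OTX2CRISPR. Unthinned, the odds of ONECUT1 in dividing cells with OTX2 were 1.49 times those in dividing cells without OTX2 in CTRL and 1.36 times in OTX2CRISPR. No interval was taken for these ratios, and their direction changed with depth. The rule left out cells with LHX1 from both sides. Horizontal cells with at least 2 LHX1 UMIs had ONECUT1 in 94.7% of CTRL and 86.2% of OTX2CRISPR cells, thinned to 2000 UMIs. The ratios, and the shares that follow, were therefore partly fixed in advance, by an amount not measured. Thinned to 1000 UMIs, ONECUT1 was in 6.37% of dividing cells with OTX2 against 8.11% without it in CTRL. In OTX2CRISPR the shares were 7.22% against 7.78%, and the intervals overlapped in both libraries.

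Because deeper cells give more chances to see a rare transcript, each cell was also thinned to 2000 UMIs and shallower cells were left out. ONECUT1 was then detected in 118 of 1064 dividing OTX2 cells in CTRL, 11.1% (9.27 to 13.1%), and in 85 of 509 in OTX2CRISPR, 16.7% (13.6 to 20.2%), so that the intervals no longer overlapped. Thinned to 1000 UMIs the shares were 6.37% (5.01 to 7.97%) and 7.22% (5.23 to 9.67%), and thinned to 3000 UMIs 15.5% (12.97 to 18.3%) and 19.9% (15.1 to 25.5%), with intervals that overlapped. In cells with at least 3 of the 5 multipotent progenitor genes COL2A1, NR2E1, SOX9, COL5A1 and ID1, which should lack it, ONECUT1 was detected in 2.22% and 3.08%, at median depths of 3616 and 3355 UMIs before thinning against 3319.5 and 2819.5 in dividing OTX2 cells. Members were left out of this class and of the ganglion cell gene class below, which lowers the ONECUT1 shares of both by an amount not measured. The shares in dividing OTX2 cells lay above the multipotent level in both libraries, a comparison that leaving out members favours. Dividing cells without OTX2, from which the rule left out LHX1 cells, had ONECUT1 in 9.28% and 12.0%. Cones, with at least 10 RBP4 UMIs, had it in 22.9% (121 of 528) of CTRL cells and in 3 of 12 OTX2CRISPR cells. Horizontal cells, with at least 2 LHX1 UMIs, had it in 94.7% and 86.2%. Cells with the ganglion cell genes POU4F2 or POU4F3 had it in 6.36% of CTRL and 34.5% of OTX2CRISPR cells.

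**Figure D1:**
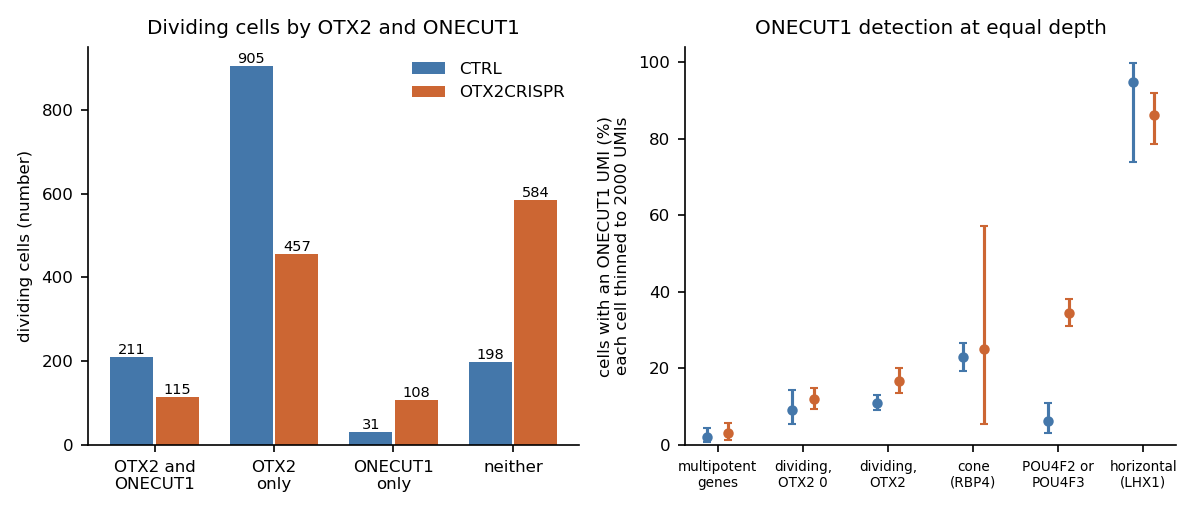
Left, bars of the number of dividing cells in each library by detection of OTX2 and ONECUT1, from 211 CTRL and 115 OTX2CRISPR cells with both to 198 and 584 with neither. Right, points are the percentage of cells with an ONECUT1 UMI after thinning to 2000 UMIs in 6 kinds of cell, with exact 95% binomial intervals. Dividing OTX2 cells lie above multipotent progenitor gene cells, a class without members, and far below horizontal cells. In CTRL they also lie below cones and close to dividing cells without OTX2. The rule left out LHX1 cells from both dividing classes.

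Most members rested on a single ONECUT1 molecule. In CTRL, 172 members had 1 ONECUT1 UMI, 28 had 2 and 11 had 3 or more, with a maximum of 8. In OTX2CRISPR, 83 members had 1, 22 had 2 and 10 had 3 or more, with a maximum of 6. Summed over members, ONECUT1 was at 357 CPM (316 to 402) in CTRL and 452 CPM (386 to 527) in OTX2CRISPR, against 1512 and 1726 CPM in horizontal cells. OTX2 had a median of 5 UMIs in CTRL members and 4 in OTX2CRISPR members, and of 4 in ONECUT1-negative cells of both libraries. By these medians OTX2 lay above its threshold, while ONECUT1 was mostly at its threshold. Some members were near the OTX2 threshold too, with 1 OTX2 UMI in 13 CTRL and 21 OTX2CRISPR members and 2 in 33 and 11. These values, like those of RBP4, LHX1 and the division genes, chose the members and are given as a description.

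The division genes summed to a median of 25 UMIs in CTRL members and 17 in OTX2CRISPR members. RBP4 was at 0 in 143 of the 211 CTRL members and in 107 of the 115 OTX2CRISPR members. Few cells lay at the edge of the division rule: 4 CTRL and 8 OTX2CRISPR members had a sum of 3, and 7 CTRL and 19 OTX2CRISPR cells were left out with a sum of 2. OLIG2 was at 919 CPM (441 to 1689) just inside and 547 CPM (273 to 979) just outside this threshold in CTRL. In OTX2CRISPR it was at 962 CPM (603 to 1457) and 760 CPM (564 to 1001), and the intervals overlapped in both libraries. NEUROG2, another gene of restricted progenitors, went the other way in CTRL, at 1562 CPM inside and 2437 CPM outside. In OTX2CRISPR NEUROG2 was at 2012 CPM inside and 653 CPM outside. So few cells do not show a difference at the threshold.

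The label of restricted progenitor was checked with OLIG2, which the rule did not use. OLIG2 was found in 194 of 211 CTRL members (91.9%) and 99 of 115 OTX2CRISPR members (86.1%), with a median of 4 UMIs in CTRL (range 0 to 33) and 3 in OTX2CRISPR (range 0 to 18). After thinning, OLIG2 was found in 86.7% and 80.0% of members, against 85.9% and 75% of ONECUT1-negative cells, 15% of CTRL cones and 0 of 19 CTRL horizontal cells. OLIG2 was therefore frequent in members and also in dividing OTX2 cells without ONECUT1. Its level was 1454 CPM (1370 to 1542) in CTRL members and 1403 CPM in ONECUT1-negative cells, a log2 ratio of 0.05 (-0.04 to 0.15). In OTX2CRISPR it was 1305 CPM (1190 to 1428) against 1093 CPM, a log2 ratio of 0.26 (0.10 to 0.41).

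The first comparison asked how dividing OTX2 cells with an ONECUT1 UMI differed from those without one, within each library. A cell without a UMI may still have made ONECUT1, since 172 of 211 CTRL and 83 of 115 OTX2CRISPR members had only 1. Members were also deeper, with medians of 3540 against 3288 UMIs in CTRL and 2984 against 2817 in OTX2CRISPR. The classes therefore divide cells by detection, and the part of missed ONECUT1 in what follows was not tested. In CTRL the profiles of the 2 classes were close. Of 4710 genes with at least 100 UMIs over the classes compared, 1 (0.0212%) was higher by 2 fold or more in members and 13 (0.276%) were lower. In OTX2CRISPR, where fewer cells were counted, 16 of 2640 genes (0.606%) were higher and 8 (0.303%) lower by 2 fold or more. The median log2 ratio over all genes was within 0.02 of 0 in each of these comparisons.

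Few genes moved alike in both libraries. Of the 2610 genes with enough UMIs in both, 1340 (51.3%) had the same sign and 0 passed 2 fold in both, with a correlation of 0.0946 across genes, which are not independent replicates. HSPB9, a small heat shock protein gene, had the lowest ratio in CTRL, -2.49, but 470 of its 638 UMIs in ONECUT1-negative cells came from 1 cell. With the 10% of cells with the most UMIs left out of each library, the HSPB9 ratio was 0.69. HSPB9 was chosen after its values were seen. With members held to 2 or more ONECUT1 UMIs, which left 39 CTRL and 32 OTX2CRISPR cells, 71 CTRL and 69 OTX2CRISPR genes 2 fold higher were counted, and 240 and 124 genes 2 fold lower. The number of genes tested at this setting is not given here. With so few cells each ratio has a wider counting error, whose part in these counts was not tested. The counts are therefore not compared with those above.

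**Figure D2:**
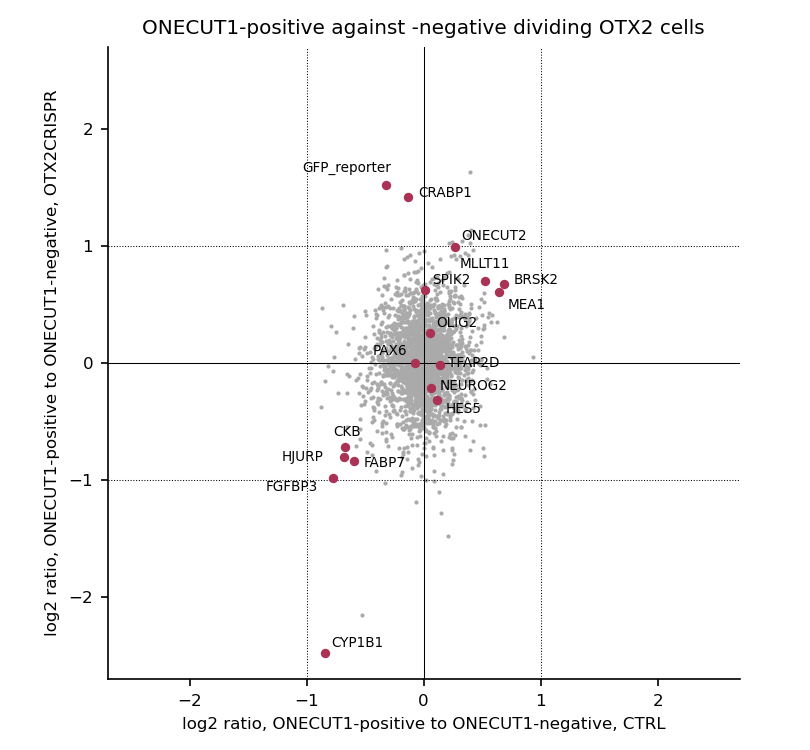
Each point is 1 of the 2610 genes with at least 100 UMIs in both libraries, placed by its log2 ratio of ONECUT1-positive to ONECUT1-negative dividing OTX2 cells in CTRL (horizontal axis) and in OTX2CRISPR (vertical axis), with dotted lines at 2 fold. No gene lies past 2 fold in both libraries, and FABP7, CKB and FGFBP3 lie to the lower left.

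Genes of the restricted progenitor list, which holds transcription factors and also DIO3, GADD45G, BTG2 and EYA2, were at like levels in members and ONECUT1-negative cells of CTRL. Over the 13 of 17 genes of the list with enough UMIs the median log2 ratio was 0.01 in CTRL, and over 12 it was -0.19 in OTX2CRISPR, with 0 past 2 fold in either. NEUROG2, a proneural bHLH factor, was at 2316 CPM in CTRL members and 2217 CPM in ONECUT1-negative cells, a log2 ratio of 0.06 (-0.01 to 0.14), and at 2662 against 3092 CPM in OTX2CRISPR, -0.22 (-0.32 to -0.11). NEUROG2 was thus close in CTRL and lower in OTX2CRISPR members. NEUROD4, a bHLH factor of differentiating retinal cells, had a log2 ratio of 0.14 in both libraries. INSM1, a zinc finger factor of cells about to become neurons, was at 1803 against 1729 CPM in CTRL and 2102 against 1862 CPM in OTX2CRISPR.

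TFAP2D, an AP-2 transcription factor, was at 3292 CPM (3165 to 3423) in CTRL members and 2990 CPM in ONECUT1-negative cells, and at 1914 (1775 to 2062) and 1932 CPM in OTX2CRISPR. HES6, a bHLH factor that counters HES1, had a ratio of -0.19 in CTRL and -0.96 (-1.55 to -0.41) in OTX2CRISPR. In OTX2CRISPR members, NEUROG2 and HES6 were therefore lower and OLIG2 higher than in ONECUT1-negative cells. DIO3, the deiodinase that inactivates thyroid hormone, was at 1064 against 1059 CPM in CTRL and at 248 against 411 CPM in OTX2CRISPR, a log2 ratio of -0.73 (-1.07 to -0.41).

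Notch signalling, by which a progenitor that makes the ligands DLL1 or DLL4 holds its neighbours back from differentiation, showed no common shift. The median over 12 measured Notch genes was -0.08 in CTRL and over 10 was -0.15 in OTX2CRISPR, with 0 past 2 fold. HES5, a transcription target of Notch, was at 1229 CPM (1151 to 1310) in CTRL members and 1133 CPM in ONECUT1-negative cells, and at 513 CPM (442 to 592) against 639 CPM in OTX2CRISPR. DLL1 had log2 ratios of -0.09 and -0.15. NOTCH1, the receptor, had 0.11 (0.02 to 0.21) and -0.05 (-0.19 to 0.08).

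Most measured genes of the multipotent progenitor list had log2 ratios below 0 in members, none of them 2 fold lower. Among the 18 genes of this list measured in CTRL, 14 lay below 0 with a median log2 ratio of -0.11, and in OTX2CRISPR 10 of 15 lay below 0 with a median of -0.36. The medians over all genes were near 0. The 1 gene 2 fold higher was FGF19, a secreted growth factor on this list, at 1.67 (1.23 to 2.10) in OTX2CRISPR. FABP7, a fatty acid binding protein of progenitors and glia, was at 430 CPM in members of each library, with intervals of 385 to 479 in CTRL and 365 to 503 in OTX2CRISPR, against 651 and 769 CPM in ONECUT1-negative cells. CKB, the brain form of creatine kinase, was at 287 against 456 CPM in CTRL and 328 against 539 CPM in OTX2CRISPR, log2 ratios of -0.67 (-0.88 to -0.46) and -0.72 (-1.01 to -0.43). FGFBP3, which binds fibroblast growth factors, was at 76.9 against 132 CPM and at 119 against 235 CPM.

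Genes with the same sign in both libraries were ranked by the smaller of their log2 ratios in size. This choice fixed the shared direction of the 10 lowest genes, which is therefore not a result. FABP7, CKB and FGFBP3 were 3 of these 10. The others were CYP1B1, a cytochrome P450 enzyme, at -0.85 and -2.48, HJURP, the chaperone of the centromere histone CENP-A, at -0.68 and -0.80, and MMD2, CUL3, SAFB2, FBXW11 and LOC107049815. Levels of FABP7 in dividing cells with neither OTX2 nor ONECUT1 were 8043 CPM in CTRL and 3240 CPM in OTX2CRISPR. Against these levels, FABP7 was low in all dividing OTX2 cells and lowest in members. PAX6, which multipotent progenitors and horizontal cells share, had log2 ratios of -0.08 (-0.42 to 0.25) and 0.00 (-0.23 to 0.22) between members and ONECUT1-negative cells.

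The 10 genes with the highest ratio shared by both libraries included some genes used in neurons. They were picked for having the same sign in both, so the shared direction is not a result. BRSK2, a kinase of neuronal polarity, was at 52.1 against 32.4 CPM in CTRL and 88.3 against 55.2 CPM in OTX2CRISPR. Its log2 ratio was 0.68 in both, with intervals of 0.12 to 1.23 and 0.03 to 1.29. MLLT11 was at 108 against 75.2 CPM and 232 against 142 CPM, log2 ratios of 0.52 (0.15 to 0.89) and 0.70 (0.31 to 1.08). KIF1A, a kinesin that carries synaptic vesicle precursors, had 0.56 (-0.07 to 1.16) and 0.43 (-0.13 to 0.96), and MEA1 had 0.65 (0.21 to 1.06) and 0.60 (0.03 to 1.16). The rest were CRTC1, INTS5, CELSR3, WBP11, SEPT3 and TMEFF1, each with an interval that covered 0 in at least 1 library. A list of general neuronal genes did not share this in CTRL, where its median over 9 genes was -0.01, while over 8 genes in OTX2CRISPR it was 0.29.

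The summed level of horizontal cell genes was higher in members, in CTRL partly through few cells. Summed over the 15 genes of the list, which does not hold the rule genes ONECUT1 and LHX1, the level was 612 CPM (558 to 670) in CTRL members against 419 CPM (396 to 442) in ONECUT1-negative cells, and 1150 (1043 to 1266) against 575 CPM (536 to 618) in OTX2CRISPR. Genes of this list with enough UMIs numbered 3 in each library, with median log2 ratios of -0.19 in CTRL and 0.995 in OTX2CRISPR. The sum and the median thus differed in sign in CTRL. The list holds ONECUT2 and ONECUT3, relatives of ONECUT1 described below. In OTX2CRISPR the median was the ratio of ONECUT2 itself, with ONECUT3 at 2.42 and PROX1 at -0.46. ONECUT2 and ONECUT3 had 216 and 62 of the 417 summed UMIs of OTX2CRISPR members, and 215 and 21 of the 470 of CTRL members. With the minimum set at 20 UMIs the horizontal median in CTRL was 1.46. Without cells with TFAP2A, TFAP2B or ISL1, an alternative chosen after seeing the data, the sum was 373 CPM (330 to 421) in CTRL members against 394 CPM (372 to 417), the other direction, but 971 CPM (867 to 1084) against 522 CPM (484 to 564) in OTX2CRISPR. These 3 genes are on the list, so this step set them to 0, and the change of direction in CTRL was partly fixed in advance. TFAP2A, TFAP2B and ISL1 had 42, 35 and 33 of the 470 summed UMIs of CTRL members. In CTRL ONECUT1-negative cells they had 35, 11 and 15 of 1303. In OTX2CRISPR the higher sum was not limited to cells with these 3 genes.

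The genes of the list did not move together. PROX1, a homeodomain factor of horizontal cells, was at 32.6 CPM (21.1 to 48.1) in CTRL members against 44.0 CPM and at 105 CPM (74.2 to 144) against 144 CPM in OTX2CRISPR, log2 ratios of -0.43 (-1.11 to 0.19) and -0.46 (-0.999 to 0.05). LHX9, a LIM-homeodomain factor, had log2 ratios of -0.19 (-0.61 to 0.21) and -0.18 (-1.95 to 1.26). TFAP2A, an AP-2 factor of horizontal and amacrine cells, had 42 UMIs in 13 CTRL members, 54.7 CPM (39.4 to 74.0), against 11.2 CPM in ONECUT1-negative cells, and 17 UMIs in 6 OTX2CRISPR members, 46.9 CPM (27.3 to 75.1), against 7.45 CPM.

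TFAP2B, its close relative, was at 45.6 against 3.53 CPM in CTRL and 27.6 against 2.98 CPM in OTX2CRISPR. ISL1, a LIM-homeodomain factor of some horizontal cells and of ganglion cells, had all its 33 UMIs in 4 CTRL members and 1 UMI in OTX2CRISPR members. These levels were small beside those of dividing cells with ONECUT1 but no OTX2, where TFAP2A was at 632 CPM, TFAP2B at 1327 CPM and ISL1 at 1654 CPM in CTRL. PTF1A, a bHLH factor needed for horizontal and amacrine cells, was at 7.82 against 10.9 CPM in CTRL and at 80.0 against 35.0 CPM in OTX2CRISPR, a log2 ratio of 1.19 (0.47 to 1.89). In OTX2CRISPR, 4 cells held 18 of the 29 PTF1A UMIs of members and 4 held 22 of the 47 of ONECUT1-negative cells.

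At least 1 UMI of TFAP2A, TFAP2B or ISL1 was found in 16 of 211 CTRL members (7.58%) and 10 of 115 OTX2CRISPR members (8.70%), against 43 of 905 (4.75%) and 18 of 457 (3.94%) ONECUT1-negative cells. The 3 CTRL members with the most such UMIs, 25, 18 and 16, had 0 UMIs of OLIG2, 0 of NEUROG2 and 0 of TFAP2D, with 1 or 2 UMIs of OTX2. The OTX2CRISPR member with the most, 10, also had 0 of these and 1 UMI of OTX2. These cells met the rule with a low OTX2 count and without the restricted progenitor genes that most members had. Other members had both sets of genes, such as a CTRL member with 13 UMIs of TFAP2A and TFAP2B, 5 of OLIG2 and 11 of NEUROG2. That cell had 6537 UMIs, the most of the 16, against a median of 3540 in CTRL members, and doublets were not called.

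**Figure D3:**
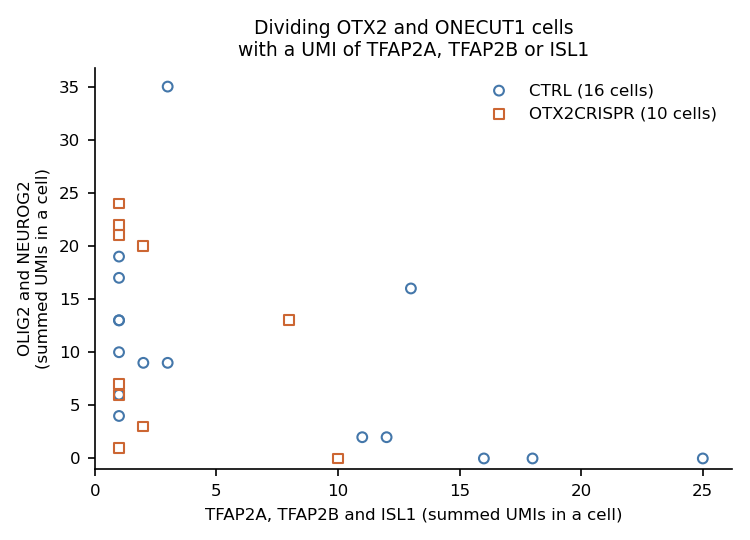
Each symbol is a member with a UMI of TFAP2A, TFAP2B or ISL1, 16 in CTRL and 10 in OTX2CRISPR, placed by the summed UMIs of those genes (horizontal axis) and of OLIG2 and NEUROG2 (vertical axis) in that cell. The 3 CTRL cells with 25, 18 and 16 horizontal cell gene UMIs lie at 0 on the vertical axis.

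The other ONECUT genes share their DNA-binding domains with ONECUT1, are on the horizontal cell list and were higher in members. For ONECUT2 the ratio was larger in OTX2CRISPR, and for ONECUT3 the ratios were alike in both libraries. ONECUT2 was at 280 CPM (244 to 320) in CTRL members and 233 CPM (216 to 250) in ONECUT1-negative cells, a log2 ratio of 0.27 (0.04 to 0.49), and at 596 CPM (519 to 681) against 299 CPM (270 to 330) in OTX2CRISPR, 1.0 (0.75 to 1.24). After thinning, ONECUT2 was found in 38.9% and 34.4% of the CTRL cells and in 45.7% and 30.7% of the OTX2CRISPR cells. ONECUT2 was thus frequent in dividing OTX2 cells whether or not an ONECUT1 UMI was seen. Multipotent progenitor gene cells, a class without members, had it in 9.18% and 8.56%. ONECUT3 had 21 UMIs in 8 CTRL members, 27.4 CPM against 4.50 CPM, and 62 UMIs in 30 OTX2CRISPR members, 171 CPM (131 to 219) against 32.1 CPM, log2 ratios of 2.60 (1.56 to 3.69) and 2.42 (1.83 to 3.01).

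Cells with TFAP2A, TFAP2B or ISL1 carried much of these differences in CTRL and less of them in OTX2CRISPR. With such cells left out of both classes, an alternative chosen after seeing the data, the CTRL log2 ratio of ONECUT3 was -0.16 and that of NRXN3, a synaptic adhesion gene of the horizontal list, went from 2.15 to -0.26. In OTX2CRISPR the ONECUT3 ratio was 2.26 and the ONECUT2 ratio 1.08 without those cells. SLIT1, an axon guidance ligand chosen after its values were seen, was at 56.0 against 8.35 CPM in CTRL and 168 against 61.1 CPM in OTX2CRISPR. Without those cells the SLIT1 ratio went from 2.75 to 0.62 in CTRL and from 1.46 to 1.34 in OTX2CRISPR.

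Cone genes were scarce in members, which the limit on RBP4 partly fixed in advance. Summed over the 19 cone genes found in the files, the level was 337 CPM (298 to 381) in CTRL members against 285 CPM (266 to 304) in ONECUT1-negative cells, and 317 (262 to 381) against 158 CPM (137 to 181) in OTX2CRISPR. PRDM1, a transcription factor that favours photoreceptor over bipolar fate, was at 86.0 against 50.4 CPM in CTRL, a log2 ratio of 0.77 (0.33 to 1.19), and at 46.9 against 23.1 CPM in OTX2CRISPR, 1.02 (0.08 to 1.92). RXRG, a nuclear receptor of cones, was at 30.0 against 37.6 CPM in CTRL but at 74.5 against 18.6 CPM in OTX2CRISPR, where 12 members held its 27 UMIs. Members with RXRG, THRB, ISL2 or OTX5 after thinning were 13 of 203 in CTRL, 6.40% (3.45 to 10.7%), and 12 of 105 in OTX2CRISPR, 11.4% (6.05 to 19.1%), against 9.87% and 2.97% of ONECUT1-negative cells.

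Members with PTF1A, TFAP2A, TFAP2B or PROX1, genes of horizontal cells, were 12.8% in CTRL and 28.6% in OTX2CRISPR after thinning, against 12.9% and 27.0% of ONECUT1-negative cells. Only 5 CTRL members and 1 OTX2CRISPR member had a gene of both the horizontal and the cone set, and 169 of 203 CTRL and 64 of 105 OTX2CRISPR members had neither. Most members therefore carried no transcript of either set at this depth, as did 78.5% of CTRL and 70.8% of OTX2CRISPR ONECUT1-negative cells. The rule had already left out cells with LHX1 or with more than 2 RBP4 UMIs, so low shares of these sets were partly fixed in advance. The 8 amacrine cell genes summed to 26.1 CPM (15.9 to 40.2) in CTRL members and 35.7 CPM in ONECUT1-negative cells, and to 166 CPM (126 to 213) and 173 CPM in OTX2CRISPR. As a measure of background for these shares, TFAP2A was found in 0.568% of CTRL cones, at a median depth of 2124 UMIs, and RXRG in 0 of 19 CTRL horizontal cells, at 2308 UMIs, against 3540 in CTRL members.

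In OTX2CRISPR, members had higher levels than ONECUT1-negative cells of CRABP1 and SULF2, which were close in CTRL, and of STMN2 and FGF19, which in CTRL had the same direction on few UMIs. CRABP1, a retinoic acid binding protein, was at 359 CPM (300 to 426) against 134 CPM in OTX2CRISPR and at 79.5 against 87.1 CPM in CTRL. SULF2, a sulfatase that trims heparan sulfate, was at 160 against 49.9 CPM and, with 8 UMIs in CTRL members, at 10.4 against 9.0 CPM. These genes belong to a list of 5 that the study chose on these cells, so their direction between libraries is not independent evidence. Over the 3 of that list measured in OTX2CRISPR the median log2 ratio was 1.42, with 2 past 2 fold. STMN2, a microtubule regulator of growing axons, was at 381 CPM (320 to 450) against 124 CPM in OTX2CRISPR, and FGF19 at 232 CPM (185 to 287) against 73.1 CPM.

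In CTRL, STMN2 was at 18.2 against 6.75 CPM and FGF19 at 27.4 against 14.5 CPM, on 14 and 21 UMIs in members, log2 ratios of 1.43 (0.35 to 2.48) and 0.92 (0.10 to 1.70). Without the cells with TFAP2A, TFAP2B or ISL1 the CTRL log2 ratios went from 1.43 to -1.84 for STMN2 and from 0.92 to -2.26 for FGF19, whereas in OTX2CRISPR they went from 1.62 to 1.65 and from 1.67 to 1.55. The ganglion cell list, which holds STMN2, had a median of 0.91 over 4 genes in OTX2CRISPR and 0.14 over 3 in CTRL. Defining ganglion cell genes POU4F1, POU4F2 or POU4F3 were found in 1 of 211 CTRL and 5 of 115 OTX2CRISPR members.

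**Figure D4:**
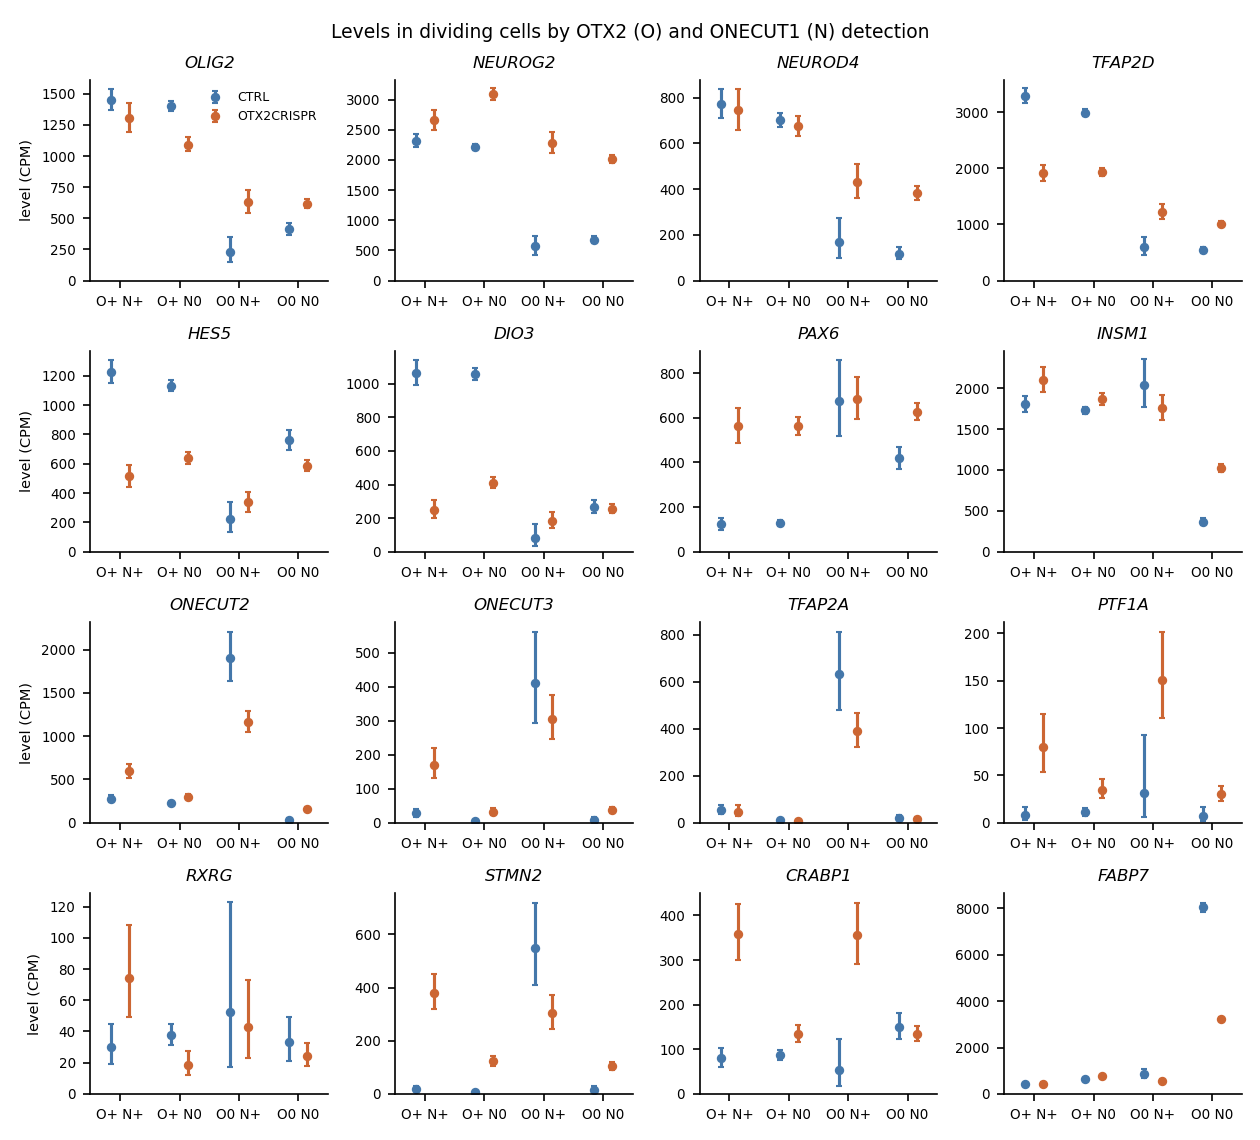
Points are the levels of 16 genes in CPM with exact 95% Poisson intervals in dividing cells with OTX2 and ONECUT1 (O+ N+), OTX2 alone (O+ N0), ONECUT1 alone (O0 N+) and neither (O0 N0), by library. OLIG2 and NEUROG2 in CTRL are alike with and without ONECUT1 and lower without OTX2, whereas CRABP1 and STMN2 differ between the OTX2 classes in OTX2CRISPR.

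The GFP_reporter sequence was concentrated in a few cells of OTX2CRISPR members. It was at 408 CPM (364 to 456) in CTRL members and 510 CPM in ONECUT1-negative cells, and at 794 CPM (705 to 892) against 277 CPM in OTX2CRISPR. Of the 288 GFP_reporter UMIs of OTX2CRISPR members, 97, 40 and 33 came from 3 cells, 59.0%, whereas the 3 highest cells held 14.4% in CTRL members and 12.2% and 12.7% in ONECUT1-negative cells of CTRL and OTX2CRISPR. Without the 3 highest cells of each class, chosen after seeing the data, the OTX2CRISPR log2 ratio of GFP_reporter went from 1.52 to 0.49 and the CTRL ratio from -0.32 to -0.35. The number of plasmid copies a cell took up was not measured.

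Genes of the cell cycle were at like levels with and without ONECUT1 in CTRL and somewhat lower in members of OTX2CRISPR. Over 22 DNA replication genes the median log2 ratio was within 0.01 of 0 in CTRL, and over 8 in OTX2CRISPR it was -0.23. Over 35 genes of mitosis the median was 0.01 in CTRL, and over 34 it was -0.06 in OTX2CRISPR. All 8 replication genes measured in OTX2CRISPR lay below 0, each with an interval that covered 0. The log2 ratio of their summed level was -0.25 (-0.37 to -0.13). Of the mitosis genes there, 21 lay below 0 and 13 above, with a summed log2 ratio of -0.15 (-0.20 to -0.11). Intervals lay below 0 for 7 mitosis genes and above 0 for 0. The share of all genes with such intervals is not given here. With members held to 2 or more ONECUT1 UMIs the mitosis median in OTX2CRISPR was -0.61. CDKN1C, a CDK inhibitor that rises as retinal progenitors leave the cycle, was at 1303 CPM (1223 to 1386) against 1196 CPM in CTRL and at 1501 CPM (1377 to 1632) against 1073 CPM in OTX2CRISPR, log2 ratios of 0.12 (0.02 to 0.23) and 0.48 (0.34 to 0.63). CDKN1C was therefore more raised in members of OTX2CRISPR than of CTRL by these values, a difference that was not tested. The whole list of cell cycle exit genes had medians of 0.10 over 9 genes and 0.12 over 6.

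Members themselves varied with their ONECUT1 count. Against the 172 CTRL members with 1 ONECUT1 UMI, the 39 with 2 or more had ONECUT2 at 467 against 235 CPM, ONECUT3 at 74.5 against 16.1 CPM and TFAP2A at 156 against 30.6 CPM. In OTX2CRISPR, the 32 members with 2 or more had ONECUT2 at 912 against 463 CPM, ONECUT3 at 372 against 86.3 CPM and CRABP1 at 624 against 247 CPM. In CTRL the 11 ONECUT3 UMIs of the members with 2 or more came from 3 cells and the 23 TFAP2A UMIs from 4 cells, all among the cells with TFAP2A, TFAP2B or ISL1 described above. Without such cells the members with 2 or more ONECUT1 UMIs had ONECUT2 at 341 CPM (250 to 455) and 0 UMIs of ONECUT3 in CTRL, where 3 UMIs would be 22.3 CPM, and ONECUT2 at 821 CPM (642 to 1033) and ONECUT3 at 308 CPM (203 to 448) in OTX2CRISPR. OLIG2 was close in CTRL, at 1375 CPM (1193 to 1578) against 1473 CPM (1379 to 1571), and 1135 CPM (943 to 1356) against 1376 CPM (1236 to 1528) in OTX2CRISPR. The summed level of mitosis genes was 16429 against 16585 CPM in CTRL and 9408 against 14586 CPM in OTX2CRISPR. Depth also differed, with medians of 3636 against 3512.5 UMIs in CTRL and 3219.5 against 2813 in OTX2CRISPR, and its part in these differences was not tested.

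Members without OLIG2 numbered 17 in CTRL and 16 in OTX2CRISPR. In CTRL these cells had ONECUT2 at 798 CPM (570 to 1087) against 244 CPM (209 to 283) in members with OLIG2, and TFAP2D at 1776 against 3398 CPM. The 3 CTRL members with the most UMIs of TFAP2A, TFAP2B and ISL1 were among these 17 cells. They had 5, 13 and 6 UMIs of ONECUT2 and 0 of TFAP2D, so both values rest in part on these 3 cells. NEUROG2 was at 2295 CPM (1894 to 2754) against 2318 CPM there, so absence of OLIG2 was not accompanied by absence of NEUROG2. In OTX2CRISPR, members without OLIG2 had PTF1A at 303 CPM (162 to 518) against 50.1 CPM (28.6 to 81.3), DLX2, a homeodomain factor of amacrine and ganglion cells, at 327 against 53.2 CPM, and PAX6 at 933 against 513 CPM. Over all OTX2CRISPR members, 4 cells held 18 of the 29 PTF1A UMIs and 4 held 18 of the 31 DLX2 UMIs. Members without OLIG2 differed in depth too. They were shallower, with a median of 2757 against 3578.5 UMIs in CTRL and 2534 against 3082 in OTX2CRISPR, and the part of depth was not tested.

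The second comparison set OTX2CRISPR members against CTRL members. Of 1739 genes with enough UMIs, 45 (2.59%) were higher and 35 (2.01%) lower by 2 fold or more in OTX2CRISPR. In ONECUT1-negative cells, where more cells were counted, 103 of 5204 (1.98%) were higher and 89 (1.71%) lower. Members of OTX2CRISPR had OLIG2 and NEUROG2 near the levels of CTRL members, had more transcripts of several neuronal genes and of PAX6, and had less HES5, TFAP2D and DIO3. The same direction was seen for each of these 3 genes in ONECUT1-negative cells. Without the 10% of cells with the most UMIs, 27 genes 2 fold higher and 21 genes 2 fold lower were counted in members. The number of genes tested at that setting is not given here.

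Restricted progenitor genes had a median log2 ratio of -0.11 over 12 genes in members, with 2 past 2 fold lower. OLIG2 had a log2 ratio of -0.16 (-0.31 to 0.00) and NEUROG2 of 0.20 (0.09 to 0.31). DIO3 went from 1064 CPM in CTRL members to 248 CPM, -2.10 (-2.43 to -1.78), against -1.36 (-1.50 to -1.23) in ONECUT1-negative cells. DIO3 was therefore lower in OTX2CRISPR in both classes by these values, with the larger ratio in members, and the difference between the classes was not tested. TFAP2D had -0.78 and -0.63, and HES5 had -1.26 (-1.49 to -1.03) and -0.83 (-0.94 to -0.72). Over 7 Notch genes the median in members was 0.11, with HES5 the 1 past 2 fold.

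PAX6, a paired-box factor of the eye field that is on the multipotent progenitor list, was higher in OTX2CRISPR with and without ONECUT1. Its level was 122 CPM (99.0 to 150) in CTRL members and 563 CPM (488 to 646) in OTX2CRISPR members, a log2 ratio of 2.20 (1.84 to 2.57), and the ratio in ONECUT1-negative cells was 2.12 (1.95 to 2.30). PAX6 was found in 63 of 211 CTRL members (29.9%) and 82 of 115 OTX2CRISPR members (71.3%), and after thinning in 16.3% and 60.0%, against 4.17% of CTRL cones. OLIG2 and PAX6 were found together in 58 CTRL members and in 70 OTX2CRISPR members before thinning. SIX3, another eye field factor, had 0.93 (0.73 to 1.13). The multipotent progenitor list had a median of 0.27 over its 10 measured genes, with 9 above 0. PAX6 and FGF19 were the 2 past 2 fold higher, where 2.59% of all measured genes passed. FGF19 had enough UMIs to be measured mostly through 84 in OTX2CRISPR members, against 21 in CTRL members. Its place in the count was therefore favoured in advance, and the count does not describe the list as a whole.

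Most measured genes of the neuronal and ganglion cell lists were higher in OTX2CRISPR members. STMN2 went from 18.2 to 381 CPM, a log2 ratio of 4.38 (3.59 to 5.29), against 4.20 in ONECUT1-negative cells. MAP1B, a microtubule associated protein of axons, had 1.81 (1.53 to 2.09), ELAVL4, a neuronal RNA binding protein, 1.47 (1.20 to 1.75), and TUBB3, the neuronal tubulin, 1.45 (1.09 to 1.81), against 1.26, 1.22 and 0.85 without ONECUT1. MAP2, a microtubule associated protein of dendrites on the neuronal list, was lower, at -0.42 (-0.72 to -0.13) in members and -0.75 (-0.91 to -0.59) in ONECUT1-negative cells. Of the general neuronal list 2 of 6 measured genes passed 2 fold higher with a median of 0.58. Of the 15 genes of the ganglion list only 3 were measured, and 3 passed, with a median of 1.47. Over all genes 2.59% passed 2 fold higher. A gene was measured if it had enough UMIs over both libraries' members. STMN2 met this through 138 UMIs in OTX2CRISPR members, against 14 in CTRL members, so its place in the count was favoured in advance. The count therefore does not describe the list as a whole. STMN2 and ELAVL4 are not specific to ganglion cells, and the POU4F genes were found in few members.

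The 10 highest genes were STMN2, LOC768392, FGF19, LOC112531871, ADCYAP1, ERNI, LOC101749016, CHGB, PAX6 and CRABP1. FGF19, LOC112531871, ADCYAP1 and LOC101749016 had enough UMIs mostly through 84, 95, 88 and 99 in OTX2CRISPR members. In CTRL members they had 21, 24, 24 and 38, so their place among the 10 was favoured in advance, as for STMN2. FGF19 went from 27.4 to 232 CPM, a log2 ratio of 3.08 (2.38 to 3.85). ADCYAP1, which encodes the neuropeptide PACAP, went from 31.3 to 243 CPM, and ERNI, an early response gene of neural induction in chick, from 95.1 to 618 CPM. CHGB, a granin of secretory vesicles, had 2.34 in members and 2.22 in ONECUT1-negative cells. CRABP1 had 2.17 (1.72 to 2.64) in members and 0.62 (0.34 to 0.90) in ONECUT1-negative cells. CHGB was thus alike in both classes, while CRABP1 had intervals that did not overlap, although the difference itself was not tested. The study's list that holds CRABP1 had 2 of 2 past 2 fold, with a median of 1.95, and was chosen on these cells.

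**Figure D5:**
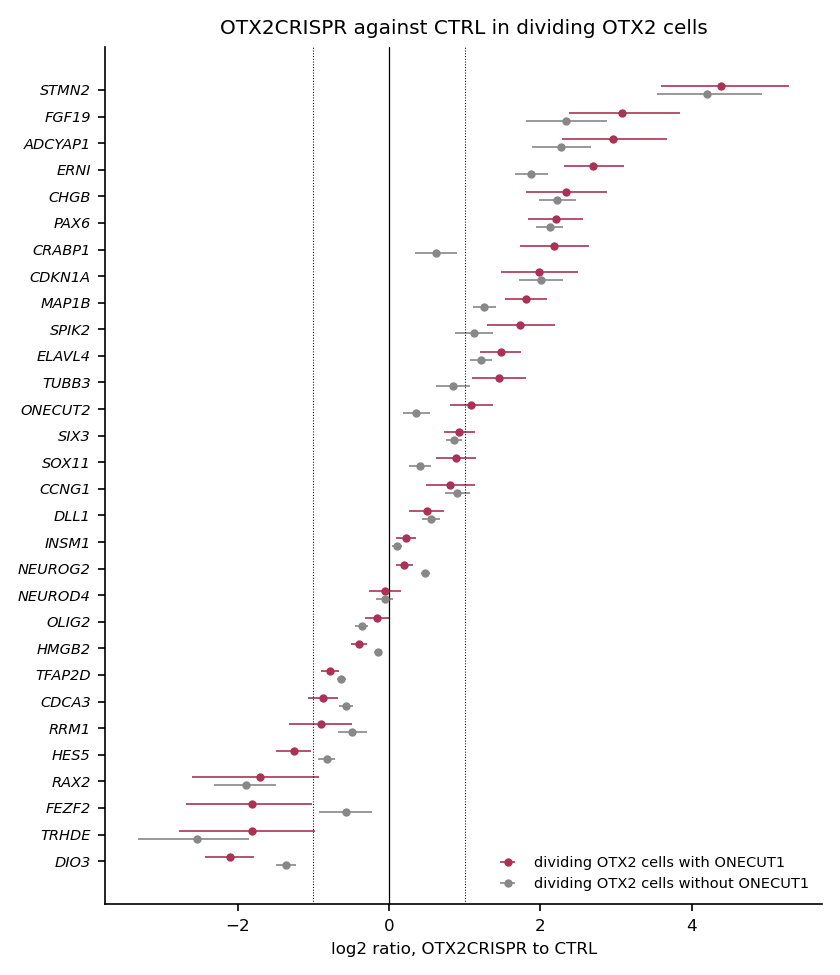
Points are log2 ratios of OTX2CRISPR to CTRL for 30 genes, with exact 95% intervals for counting error, in dividing OTX2 cells with ONECUT1 (red) and without (grey), with dotted lines at 2 fold. STMN2 and FGF19 lie at the top and DIO3 at the bottom in members, and the CRABP1 points of the 2 classes lie apart.

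The 10 lowest genes were C1orf53, AGFG1, DIO3, LOC112533358, CNTN1, KLHL4, TRHDE, FEZF2, LRRN2 and RAX2. AGFG1, an adaptor of vesicle traffic, went from 262 to 60.7 CPM, a log2 ratio of -2.11 (-2.82 to -1.47), and FEZF2, a forebrain zinc finger factor, from 145 to 41.4 CPM, -1.81 (-2.69 to -1.02), against -0.57 in ONECUT1-negative cells. RAX2, a retinal homeobox factor of photoreceptors, went from 135 to 41.4 CPM, and -1.89 was its log2 ratio without ONECUT1. TRHDE, an enzyme that degrades thyrotropin-releasing hormone, went from 126 to 35.9 CPM. Of the horizontal cell genes, LHX9 had 62 UMIs in CTRL members and 5 in OTX2CRISPR members, with a log2 ratio of -2.55 (-4.22 to -1.25) in members and -2.56 (-3.27 to -1.92) in ONECUT1-negative cells.

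ONECUT2 was higher in OTX2CRISPR members by 1.09 (0.81 to 1.37) on the log2 scale, against 0.36 (0.18 to 0.54) in ONECUT1-negative cells, and ONECUT3 by 2.64 (1.91 to 3.43) against 2.83 (1.94 to 3.82). PTF1A, on 6 UMIs in CTRL members and 29 in OTX2CRISPR members, had 3.36 (2.06 to 4.91). RXRG had opposite signs in the 2 classes, at 1.31 (0.46 to 2.18) in members and -1.01 (-1.70 to -0.38) in ONECUT1-negative cells, a difference that was not tested and rests on 23 and 27 UMIs in members.

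CDKN1A, the CDK inhibitor p21 and a target of p53, was at 66.4 CPM (49.5 to 87.4) in CTRL members and 262 CPM (212 to 320) in OTX2CRISPR members, a log2 ratio of 1.98 (1.47 to 2.50), and had 2.01 (1.72 to 2.30) in ONECUT1-negative cells. Of the p53 target list 1 of 3 measured genes passed 2 fold in members, with a median of 0.81. CDKN1A is also on the cell cycle exit list, of which 1 of 6 passed 2 fold. DNA replication genes had a median of -0.48 over 7 genes, and mitosis genes of -0.32 over 31, of which 28 lay below 0 and 0 passed 2 fold. Their part in the other differences between libraries was not tested, nor was that of depth, which had medians of 3540 UMIs in CTRL members and 2984 in OTX2CRISPR members. With 1 library a group, effects of the guide cannot be told apart from other differences between the libraries.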

How the data were processed

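Per the submitters' processing notes, the authors made the UMI counts with Cell Ranger against GRCg6a. The deposited counts are whole numbers for 23967 genes per cell barcode, without normalization. Parameters of that step are not given in the sources used here. Cells with 200 to 3200 genes were kept, and doublets were not called. Sources differ on how many retinas went into each pool.

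Counts were summed per class of cells and divided by the total UMIs of that class. Log2 ratios used genes with at least 100 UMIs over both classes where counts of genes or list medians are given, and the 12 genes of the selection rule were left out of these. Intervals were Clopper-Pearson for shares, Poisson for levels and conditional binomial for ratios, at 95%. Shares across depths used cells thinned to 2000 UMIs with a fixed seed. Python 3.11.15, numpy 2.4.6, scipy 1.17.1, pandas 2.3.3 and matplotlib 3.10.9 were used. Ratios and their intervals were checked on simulated class sums for the comparisons that involve members. The simulation had no variation between cells, so it does not cover transcripts concentrated in few cells. Thinning, classes and shares were not part of this check. With 1 library per group, 5123 CTRL and 4951 OTX2CRISPR cells kept, no test across samples was possible.

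Cells with multipotent progenitor genes, members without OLIG2 and members with TFAP2A, TFAP2B or ISL1 were classes set after seeing the data. The genes named were those of 15 gene lists, the 10 highest and 10 lowest by the smaller of the ONECUT1 ratios of the libraries where the sign was shared, and the 10 highest and 10 lowest between libraries in members. Members and lists were chosen with earlier results of these data known. GFP_reporter, SLIT1 and HSPB9 fall outside this rule and were named after their values were seen. Some genes under the rule are not reported here. Genes of the lists not found under their symbol in the files were not analysed here. Alternatives were another ONECUT1 minimum, depth, weighting, scaling, cell filters, division and RBP4 limits, gene minimum and thinning.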

Additional observations from a re-analysis of the deposited data

Results flagged for a closer look

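The log2 ratio of ONECUT1-positive to ONECUT1-negative dividing OTX2 cells had opposite signs in CTRL and OTX2CRISPR, with intervals on opposite sides of 0, for 3 named genes. NRARP, a feedback inhibitor induced by Notch, had 0.29 (0.11 to 0.46) in CTRL and -0.28 (-0.54 to -0.03) in OTX2CRISPR. HES5 had 0.12 (0.01 to 0.22) and -0.32 (-0.55 to -0.09), but with members held to 2 or more ONECUT1 UMIs its CTRL ratio was -0.13, the same sign as in OTX2CRISPR. GFP_reporter had -0.32 (-0.50 to -0.15) and 1.52 (1.30 to 1.75), of which 3 cells held 59.0% of the UMIs of OTX2CRISPR members. The difference between the libraries was not tested for any of them, since each library is 1 sample.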

How the results depend on the processing

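The limits are 1 library per group, members that mostly hold 1 ONECUT1 UMI, and horizontal and cone genes seen in few cells. No paired analysis was possible because each group is 1 library whose cells were not assigned to the embryos that gave an eye to each pool, and no library could be left out. Of 320 alternative values for the main results 283 stayed within the counting interval or within 1.5 times the count, and of 4124 for named genes 3853 did and 16 changed sign. The cause of each change was not tested.

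With ONECUT1 at 2 or more UMIs the ONECUT1 share was 3.49% in CTRL and 5.59% in OTX2CRISPR, and with the whole rule after thinning it was 11.1% in CTRL. With 2 or more ONECUT1 UMIs, genes 2 fold higher in members than in ONECUT1-negative cells numbered 71 in CTRL and 69 in OTX2CRISPR. Genes 2 fold lower numbered 240 and 124, and between libraries 18 were higher and 17 lower in members. The genes tested under each alternative are not counted here, so none of these numbers is a share. In CTRL, 2 genes were higher with depth weighting, 2 with equal weight per cell and 0 without the deepest 10% of cells. In OTX2CRISPR, 9 were higher without the deepest 10% and 14 lower with depth weighting, and between libraries 27 were higher and 21 lower in members without the deepest 10%.

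List medians under ONECUT1 at 2 or more UMIs were 1.73 for ganglion, -0.61 for mitosis and -0.44 for restricted genes in OTX2CRISPR, 0.47 for horizontal genes in CTRL, and -0.78 for mitosis genes between libraries in members. With a minimum of 20 UMIs the horizontal list gave 1.46 in CTRL and 1.23 between libraries in ONECUT1-negative cells, the neuronal list 0.47 there, and the notch list 0.53 between libraries in members.

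Shares of members moved with thinning. OLIG2 was in 91.9% of CTRL members without thinning, 71.1% at 1000 and 92.1% at 3000 UMIs, and in 56.5% and 89.5% of OTX2CRISPR members at 1000 and 3000. PAX6 was in 29.9% of CTRL members without thinning and 25.8% at 3000, and in 71.3%, 37.4% and 73.7% of OTX2CRISPR members without thinning, at 1000 and at 3000. The cone set was in 12.8% of CTRL members without thinning and the horizontal set in 40.4% of OTX2CRISPR members at 3000.

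Log2 ratios that changed sign between members and ONECUT1-negative cells of CTRL were BTG1 at 0.074, EBF3 at -1.38, FBXW11 at 0.083 and HES5 at -0.13 with 2 or more ONECUT1 UMIs, EBF3 at -0.28 and HSPB9 at 0.69 without the deepest 10%, and FGF19 at -2.26, NRXN3 at -0.26, ONECUT3 at -0.16 and STMN2 at -1.84 without cells with TFAP2A, TFAP2B or ISL1. In OTX2CRISPR they were CDKN1A at -0.0084 and SPIK2 at -0.018 without the deepest 10%. Between libraries they were CDKN1C at -0.10 in members and HSPB9 at 0.50 in ONECUT1-negative cells without the deepest 10%, PRIM1 at 0.46 in members with 2 or more ONECUT1 UMIs, and GFP_reporter at -0.053 in members without its 3 highest cells.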

Other observations

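Dividing cells with ONECUT1 but no OTX2 differed from members in both libraries. They were 31 cells in CTRL and 108 in OTX2CRISPR, with median depths of 3083 and 2712 UMIs. In CTRL their OLIG2 level was 232 CPM (145 to 351), NEUROG2 569 CPM and TFAP2D 600 CPM, and ONECUT2 was at 1907 CPM. In OTX2CRISPR OLIG2 was at 628 CPM (542 to 724), NEUROG2 at 2286 CPM, TFAP2D at 1224 CPM and ONECUT2 at 1161 CPM. The horizontal cell factor TFAP2A reached 632 CPM in the CTRL cells and 391 CPM in the OTX2CRISPR cells, and ISL1 reached 1654 and 122 CPM.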
